A study of Homo sapiens with 4 samples.

Results

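The transcription factors that set up and maintain hepatocyte identity, together with members of the GATA zinc finger family, were examined among the RNAs recovered with KIAA1429. The set comprised 8 genes chosen by name (HNF4A, FOXA1, FOXA2, FOXA3, GATA2, GATA4, GATA6 and the antisense RNA gene GATA3-AS1), out of 13300 gene names in all, and every listed transcript of each was taken. Of the 8 genes, 6 had at least 1 listed transcript, 13 transcripts in total among the 34975 of the series. GATA6 and GATA3-AS1 had 0 listed transcripts and were not analysed here.

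RNA immunoprecipitation sequencing (RIP-seq) reads the RNAs that are pulled down from a cell lysate with an antibody. The study asked which RNAs associate with KIAA1429 (VIRMA), a subunit of the complex that writes N6-methyladenosine (m6A) into RNA. The cells were HCCLM3, an established line of human hepatocellular carcinoma, and the groups were IgG RIP (precipitation with normal IgG, 2 replicates) and KIAA1429 RIP (precipitation with an antibody against KIAA1429, 2 replicates). No further genetic change or treatment of these cells is named in the labels, input RNA was not analysed here, and in a lysate of many cells fewer cells with an RNA and less of it per cell cannot be told apart.

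HNF4A is a nuclear receptor that activates a large part of the genes specific to hepatocytes. FOXA1, FOXA2 and FOXA3 are forkhead proteins that bind closed chromatin at liver enhancers and allow other factors to follow, and GATA4 and GATA6 act beside them when endoderm takes on liver fate. GATA2 is better known from blood stem cells, mast cells and endothelium, and GATA3 from T cells and luminal breast epithelium.

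Each value is an FPKM, the fragments of a transcript scaled to its length and to the mapped fragments of the library, and a gene total is the sum over the listed transcripts of a gene. Summed FPKM over all transcripts was 295573 and 315446 in IgG RIP replicates 1 and 2, and 337041 and 340300 in KIAA1429 RIP replicates 1 and 2. The share of transcripts listed at 0 was 26.6% and 32.2% in IgG RIP against 28.2% and 29.01% in KIAA1429 RIP. The low values carried a trace of depth. When FPKM was multiplied by transcript length for genes with 1 listed transcript, the products piled up at whole multiples of a step and, less often, midway between them. The step was 1.01 and 1.34 FPKM kb in IgG RIP replicates 1 and 2, and 1.14 and 1.02 FPKM kb in KIAA1429 RIP replicates 1 and 2. The step of each library was taken as the size with the largest share of these low products within 0.03 of a whole multiple. That share was 29.7% to 31.9%, against a median of 4.14% to 4.40% over all step sizes tried, a contrast that the choice favours. In genes with several listed transcripts the share at the same steps was 8.53% to 9.24%. For genes with 1 listed transcript, a further 13.1% to 16.8% lay within 0.03 of a midway point (0.5, 1.5, 2.5 and so on), so a step need not be the smallest unit.

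**Figure D1:**
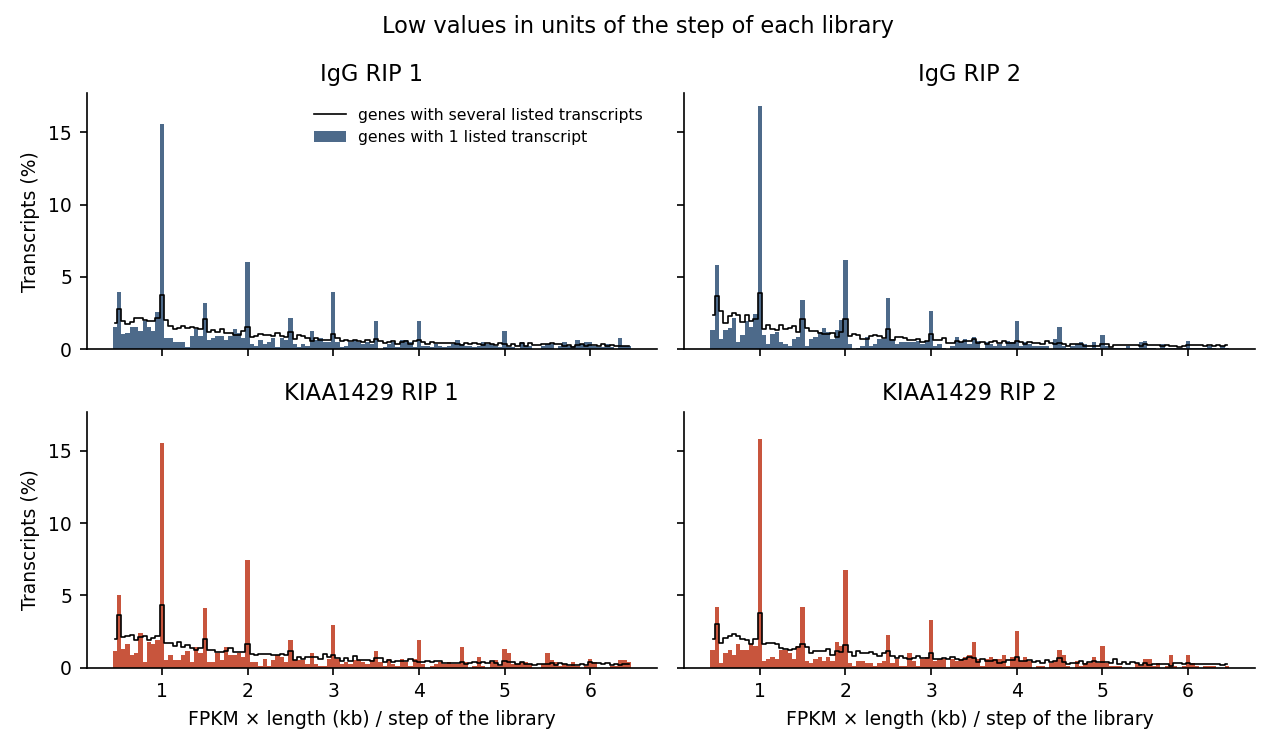
Histogram of the low values of each library, with FPKM times transcript length in kb, divided by the step of that library, on the x axis and the percentage of transcripts on the y axis, in bins of 0.05. Bars are genes with 1 listed transcript and the black line is genes with several; the bars peak at 1, 2 and 3 steps in each of the 4 libraries, and also midway, at 0.5 and 1.5 steps.

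If 1 step is the worth of 1 fragment, and FPKM was scaled per 1000000 mapped fragments, IgG RIP replicates 1 and 2 held about 988000 and 747000 fragments, and KIAA1429 RIP replicates 1 and 2 about 880000 and 982000. With the midway points taken as whole fragments, these numbers would be 2 times as large, and which of the readings holds was not tested. By either reading the shallowest library was IgG RIP replicate 2, at 0.756 times the depth of IgG RIP replicate 1. Most values were not whole multiples, so fragments were not recovered for each gene and no counting interval is given. Levels of the factors are given below in FPKM and, for some transcripts of known length, also in steps.

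The sequence that the m6A complex methylates has GGAC as its most common core, with the third letter modified, and methylated sites cluster around stop codons. The first GGAC after the stop codon is therefore printed for the main coding transcript of each factor whose sequence is given, read 5′ to 3′ on the transcript strand, with 10 bases on each side and the motif in capitals.
HNF4A: cgtgatgccaGGACcagtcccaga
FOXA1: ctagctcccgGGACtggggggttt
FOXA2: cccggatcgaGGACaagtgagaga
FOXA3: ggtactgtgaGGACtgctacattg
GATA2: gggaacagatGGACgtcgaggacc
In GRCh37 these 24-base stretches, which lie in the 3′ UTR except that the FOXA1 stretch begins with the last coding base and the stop codon and the GATA2 stretch with the last base of its stop codon, are at chr20:43058393-43058416 on the plus strand (HNF4A, ENST00000316099), chr14:38060550-38060573 on the minus strand (FOXA1, ENST00000250448), chr20:22562428-22562451 on the minus strand (FOXA2, ENST00000419308), chr19:46376526-46376549 on the plus strand (FOXA3, ENST00000302177) and chr3:128199839-128199862 on the minus strand (GATA2, ENST00000341105), by the GENCODE v44lift37 annotation.

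The A of the first motif stood 9 bases after the stop codon in FOXA1, 12 in GATA2, 34 in GATA4, 49 in FOXA2, 100 in HNF4A and 222 in FOXA3. The motif was present within 200 bases of the stop codon in 5 of the 6 factors (FOXA3 was the exception), and in 51% of the 18410 listed coding transcripts whose 3′ UTR was at least that long. Density over the whole 3′ UTR differed more. GATA2 carried 12 copies (7.54 per kb), HNF4A 16 (5.03 per kb) and GATA4 7 (4.58 per kb), whereas FOXA1 had 5 (2.76 per kb), FOXA3 had 2 (2.71 per kb) and FOXA2 had 1 (1.17 per kb), beside a median of 2.41 per kb over the same background. A match describes letters only and is not a methylated site; methylation was not measured in these libraries.

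HNF4A, the receptor at the centre of the network, had 1 listed transcript, ENST00000316099 (HNF4A-201). The gene lies on the plus strand of chr20:42984339-43061485 and is read from an upstream promoter, P2, and a downstream one, P1, whose first exons lie 45540 bases apart; P1 products prevail in adult liver, while P2 products are known from pancreas and, beside P1 products, from fetal liver. GENCODE v44lift37 gives 4 of its 17 transcripts to the P2 side and 13 to the P1 side, and the listed transcript, which starts at position 43029924, is a P1 product. The promoters give the protein different beginnings, which is why the first 45 coding bases of both are shown, with the start codon in capitals.
P1: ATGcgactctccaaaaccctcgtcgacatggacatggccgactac
P2: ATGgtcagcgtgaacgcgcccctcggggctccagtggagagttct
The P1 stretch is chr20:43030013-43030057 (ENST00000316099) and the P2 stretch chr20:42984445-42984489 (ENST00000316673), both in GRCh37 on the plus strand; levels of P2 transcripts were not analysed here.

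The level of HNF4A was 1.11 FPKM in IgG RIP replicate 1 and 0.508 FPKM in IgG RIP replicate 2. In KIAA1429 RIP the receptor stood at 0.305 FPKM in replicate 1 and 0.844 FPKM in replicate 2. IgG RIP replicate 1 was the highest library and KIAA1429 RIP replicate 1 the lowest, so the groups overlapped. Group means were 0.810 ± 0.427 FPKM in IgG RIP against 0.574 ± 0.381 FPKM in KIAA1429 RIP (SD, n = 2 each). The 4 values corresponded to 7.1, 2.4, 1.7 and 5.3 steps, in the same order of libraries. With a mean of 0.692 FPKM over the 4 libraries HNF4A fell below the 1 FPKM needed for the test, and 89.7% of all gene totals were higher.

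The FOXA genes were a little more abundant. FOXA1 lies on the minus strand of chr14:38058757-38065264 and had 2 listed transcripts, the coding ENST00000250448 (FOXA1-201) and the processed transcript ENST00000557418 (FOXA1-205). Its gene total was 1.06 and 1.71 FPKM in IgG RIP replicates 1 and 2, against 1.42 and 1.74 FPKM in KIAA1429 RIP replicates 1 and 2. The lowest value came from IgG RIP and the highest from KIAA1429 RIP, but the KIAA1429 RIP replicate 1 value lay between the IgG RIP values and the groups overlapped. FOXA1-201 alone stood at 1.06, 1.71, 1.42 and 0.717 FPKM in these libraries, and the difference from the total in KIAA1429 RIP replicate 2 was FOXA1-205, which was listed at 1.02 FPKM there and at 0 in the other 3. That value of FOXA1-205, which is 392 bases long, amounted to 0.4 steps. FOXA1-201 stood at 3.0 and 3.7 steps in IgG RIP replicates 1 and 2, and at 3.6 and 2.0 steps in KIAA1429 RIP replicates 1 and 2.

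FOXA2, on the minus strand of chr20:22561636-22566093, is the FOXA gene expressed earliest in endoderm. Its single listed transcript, ENST00000419308 (FOXA2-202), was at 1.38 and 1.28 FPKM in IgG RIP against 1.74 and 0.837 FPKM in KIAA1429 RIP replicates 1 and 2. Both extremes belonged to KIAA1429 RIP, with the IgG RIP pair between them. In steps, FOXA2-202 was at 3.3 and 2.3 in IgG RIP replicates 1 and 2, and at 3.7 and 2.0 in KIAA1429 RIP replicates 1 and 2. FOXA3, on the plus strand of chr19:46367247-46377055 and also active in adult liver, had 1 listed transcript (ENST00000302177, FOXA3-201). It was listed at 0 in IgG RIP replicate 1 and at 2.69 FPKM in IgG RIP replicate 2, and was 1.14 and 1.03 FPKM in KIAA1429 RIP replicates 1 and 2. The KIAA1429 RIP pair was close together and lay inside the wide IgG RIP span, and in steps the 4 values were 0, 4.0, 2.0 and 2.0.

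GATA2 and GATA4 were the most abundant of the set. GATA2, on the minus strand of chr3:128198270-128212044, had a gene total of 8.62 FPKM in IgG RIP replicate 1 and 4.45 FPKM in IgG RIP replicate 2. In KIAA1429 RIP its total was 5.84 FPKM in replicate 1 and 7.69 FPKM in replicate 2. The KIAA1429 RIP values lay between the IgG RIP values, and the means were 6.53 ± 2.94 FPKM in IgG RIP against 6.76 ± 1.31 FPKM in KIAA1429 RIP (SD, n = 2 each). GATA4, on the plus strand of chromosome 8 between positions 11534468 and 11617511, had a gene total of 7.57 and 5.11 FPKM in IgG RIP replicates 1 and 2. Its total in KIAA1429 RIP was 3.31 FPKM in replicate 1 and 6.26 FPKM in replicate 2. IgG RIP replicate 1 was the highest and KIAA1429 RIP replicate 1 the lowest library for GATA4, but KIAA1429 RIP replicate 2 exceeded IgG RIP replicate 2, so the groups overlapped (6.34 ± 1.74 against 4.79 ± 2.09 FPKM, SD, n = 2 each).

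**Figure D2:**
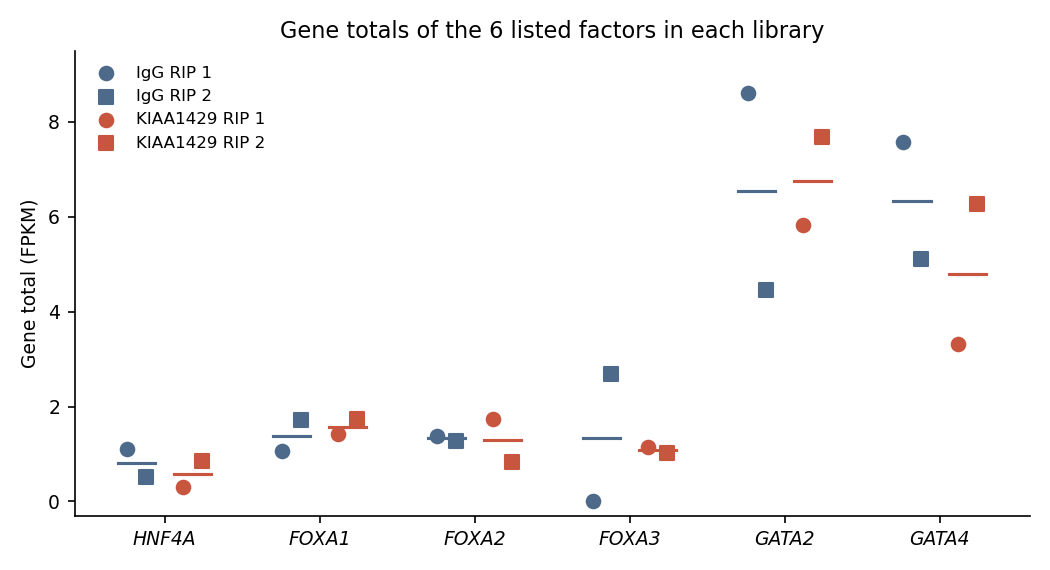
Gene totals in FPKM (y axis) of the 6 listed factors (x axis) in each library; circles are replicate 1, squares replicate 2, blue IgG RIP and red KIAA1429 RIP, and short lines are group means. GATA2 and GATA4 lie between 3.31 and 8.62 FPKM, the other 4 factors at or below 2.69 FPKM, and the groups overlap for each of the 6.

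Ordered by the mean over the 4 libraries, the levels ran from GATA2 (6.65 FPKM) and GATA4 (5.56 FPKM) to FOXA1 (1.48 FPKM), FOXA2 (1.31 FPKM), FOXA3 (1.21 FPKM) and HNF4A (0.692 FPKM). The ranges of GATA2 and GATA4 overlapped, as did those of FOXA1, FOXA2 and FOXA3. Of the 4 values of HNF4A, 1 lay in the range of FOXA1, 2 in that of FOXA2 and 4 in that of FOXA3, and differences between genes were not tested. The 2 GATA genes stood apart from the rest, since the lowest value of either, 3.31 FPKM, was above the highest value of the other 4, 2.69 FPKM. GATA2 lay at the middle of all gene totals, at rank 6650 of 13300 from the top, and GATA4 slightly lower, with 54.5% of gene totals above it. For FOXA1, FOXA2 and FOXA3 the share of gene totals above was 80.3%, 82.0% and 83.1%.

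Gene totals did not separate KIAA1429 RIP from IgG RIP for any of the 6 factors. Of the 5 that reached the 1 FPKM mean, 0 were called by limma at an adjusted p under 0.05 and a log2 fold change beyond 1, as were 0 of the 11361 gene totals tested (0%); 522 gene totals had an unadjusted p under 0.05, and 0 of the 5 factors did. The largest difference among the 5 was that of GATA4, with a log2 fold change of -0.37 (KIAA1429 RIP minus IgG RIP on the log2(FPKM + 1) scale, SE 0.49, 95% confidence interval -1.53 to 0.78, limma adjusted p = 0.997). FOXA1 was at 0.12 (SE 0.57), FOXA3 at 0.12 (SE 0.78), GATA2 at 0.09 (SE 0.47) and FOXA2 at -0.05 (SE 0.60). On this scale the change of genes near 1 FPKM is understated. For FOXA3, with its value of 0, the sign also depended on the scale, since the log2 ratio of its group means was -0.31. The interval of FOXA3, from -1.74 to 1.97, was the widest, and the narrowest, that of GATA2 from -1.02 to 1.20, still spanned more than a doubling in either direction. The median log2 ratio of group means was -0.05 over the 5 factors and 0.01 over the 11228 tested gene totals with a finite ratio. No group of values stood clear of the other, either upward (0 of 5 factors, against 16.6% of all gene totals tested) or downward (0 of 5, against 15.2%). For 1 gene measured in 2 libraries against 2, the smallest p that a two-sided exact permutation test allows is 0.333.

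References behaved in different ways. KIAA1429 itself, listed as VIRMA, was at 18.0 and 10.01 FPKM in IgG RIP against 18.2 and 11.6 FPKM in KIAA1429 RIP. METTL3, the catalytic subunit of the m6A complex, was at 1.19 and 0.498 FPKM in IgG RIP against 7.44 and 6.04 FPKM in KIAA1429 RIP, with groups that did not overlap (limma adjusted p = 0.946). METTL3 met the filter only through KIAA1429 RIP, where it was high, which favours its direction, so the difference is a description. GAPDH, a glycolytic enzyme, ranged from 432 to 1076 FPKM with overlapping groups. ACTB, cytoplasmic actin, was 555 and 403 FPKM in IgG RIP against 304 and 224 FPKM in KIAA1429 RIP, so its groups did not overlap (limma adjusted p = 0.997). All 6 factors were below VIRMA, GAPDH and ACTB, whereas GATA2 and GATA4 had higher means over the 4 libraries than METTL3 (3.79 FPKM).

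The transcripts of GATA4 did not follow its total. GATA4-201 (ENST00000335135), the coding transcript with the highest mean, stood at 7.57 and 5.11 FPKM in IgG RIP replicates 1 and 2. In KIAA1429 RIP it was at 1.32 FPKM in replicate 1 and 0.820 FPKM in replicate 2. Both KIAA1429 RIP values were far below both IgG RIP values, and the log2 fold change was -1.82 (log2(FPKM + 1) scale, SE 0.56, 95% confidence interval -3.29 to -0.35). GATA4-201 did not pass limma's adjusted threshold (unadjusted p = 0.025, limma adjusted p = 0.844; lower in both KIAA1429 RIP libraries than in either IgG RIP library). GATA4-201 was 3414 bases long, and its values amounted to 25.5 and 13.0 steps in IgG RIP but 4.0 and 2.7 steps in KIAA1429 RIP.

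The other 4 listed transcripts of GATA4, all coding, were listed at 0 in both IgG RIP libraries. GATA4-207 (ENST00000532059) was at 1.99 FPKM in KIAA1429 RIP replicate 1 and at 0 in replicate 2. GATA4-203 (ENST00000526716), GATA4-205 (ENST00000528027) and GATA4-208 (ENST00000532977) were at 2.06, 2.24 and 1.14 FPKM in KIAA1429 RIP replicate 2 and at 0 in replicate 1. No single one of them was therefore above 0 in both KIAA1429 RIP libraries. Together they came to 1.99 and 5.44 FPKM in KIAA1429 RIP replicates 1 and 2. GATA4-203, of 686 bases, was at 1.4 steps and GATA4-208, of 877 bases, at 1.0 steps, and for GATA4-203 a single step in KIAA1429 RIP replicate 2 was already worth 1.48 FPKM.

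As a share of the gene total, GATA4-201 made up 100% in both IgG RIP libraries, 39.8% in KIAA1429 RIP replicate 1 and 13.1% in KIAA1429 RIP replicate 2. The difference of the mean shares, KIAA1429 RIP minus IgG RIP, was -73.5 points. The other 4 GATA4 transcripts, at 0 in IgG RIP, were listed only through KIAA1429 RIP, which favours a lower share there, so this difference is a description. This pattern was chosen after the values were seen, and it was set beside all genes with several listed transcripts and a gene total of at least 1 FPKM. A difference of at least 50 points downward in the share of the most abundant transcript, with groups that did not overlap, occurred in 239 of 7580 such genes (3.15%), and 1 of that size upward in 261 (3.44%). Of the 3 factors with several listed transcripts, 1 met this downward, GATA4, with the limit just given, and 0 upward. Whether fragments of the same gene total were divided differently among overlapping transcripts was not tested.

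GATA2 divided its total in yet another way. GATA2-201 (ENST00000341105), a coding transcript of the full gene, was at 2.84 and 3.97 FPKM in IgG RIP against 2.54 and 5.10 FPKM in KIAA1429 RIP, with overlapping groups. GATA2-203 (ENST00000487848), also coding, was listed at 0 and 0.480 FPKM in IgG RIP replicates 1 and 2 and at 1.88 and 2.59 FPKM in KIAA1429 RIP. Its groups did not overlap, and the log2 fold change was 1.40 (log2(FPKM + 1) scale, SE 0.78, 95% confidence interval -0.65 to 3.45, limma adjusted p = 0.879; higher in both KIAA1429 RIP libraries). With a mean of 0.24 FPKM in IgG RIP and 2.23 FPKM in KIAA1429 RIP, GATA2-203 passed the filter only through the group where it was high, which favours this direction, so the estimate is a description. In steps it went from 0 and 0.7 in IgG RIP to 3.1 and 4.8 in KIAA1429 RIP. GATA2-204 (ENST00000489987), a processed transcript, was at 5.77 FPKM in IgG RIP replicate 1 and 1.41 FPKM in KIAA1429 RIP replicate 1, and at 0 in replicate 2 of both groups. The high GATA2 total of IgG RIP replicate 1 was thus mostly GATA2-204, and GATA2-201 made up only 33.0% of it, against 89.2% in IgG RIP replicate 2, 43.6% in KIAA1429 RIP replicate 1 and 66.3% in KIAA1429 RIP replicate 2.

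**Figure D3:**
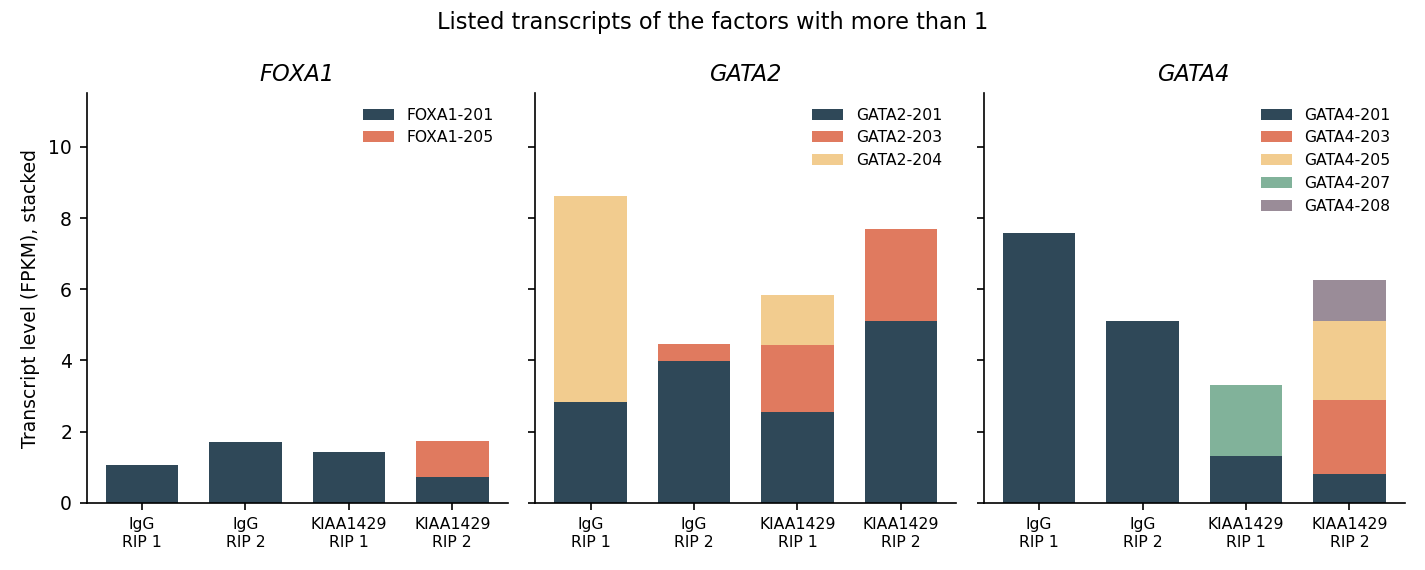
Stacked bars of FPKM (y axis) for each listed transcript of FOXA1, GATA2 and GATA4 in each library (x axis, group and replicate); colours name the transcripts within a panel. GATA4 consists of GATA4-201 in both IgG RIP libraries, at 7.57 and 5.11 FPKM, and holds 1.32 and 0.820 FPKM of it in KIAA1429 RIP.

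Of the 13 transcripts of the factors, 7 had a mean of at least 1 FPKM and were tested, 0 of which were called by limma, as were 0 of all 23375 transcripts tested (0%). At an unadjusted p under 0.05 there were 1253 transcripts in all, and 1 of the 7, GATA4-201. Groups that did not overlap and means at least 2-fold apart were found for 1 of the 7 upward, GATA2-203, which the filter favours as given above (all transcripts, 9.69%), and for 1 of the 7 downward, GATA4-201 (all transcripts, 9.27%). Among the 13, 8 were listed at 0 in at least 1 library and 5 in both IgG RIP libraries.

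GATA3, a relative outside the set, was the most abundant GATA gene. Its gene total of 50.3 and 36.0 FPKM in IgG RIP against 47.5 and 42.1 FPKM in KIAA1429 RIP exceeded every value of GATA2 and GATA4, and only 8.83% of gene totals had a higher mean. The share of its most abundant transcript (ENST00000379328) was 91.0% and 61.4% in IgG RIP against 34.4% and 28.9% in KIAA1429 RIP, a difference of the mean shares of -44.5 points. GATA3-201 (ENST00000346208), chosen for mention after its values were seen, was listed at 0 in both IgG RIP libraries and at 15.8 and 23.96 FPKM in KIAA1429 RIP replicates 1 and 2, so that it was listed only through KIAA1429 RIP. GATA5, the remaining cardiac and endodermal GATA gene, also chosen after its values were seen, was at 1.17 and 0.519 FPKM in IgG RIP, against 1.28 FPKM and 0 in KIAA1429 RIP.

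Among relatives and cofactors of the GATA proteins, 13 of 20 genes were listed and 10 tested. The 3 most abundant were GATA3, GATAD2A (a subunit of the NuRD chromatin complex) and MEF2D (a MADS box factor of muscle and neurons). GATAD2A was at 50.9 and 40.3 FPKM in IgG RIP against 34.7 and 23.9 FPKM in KIAA1429 RIP, and MEF2D at 21.7 and 21.3 FPKM against 14.4 and 20.8 FPKM. NKX2-5, the cardiac homeobox partner of GATA4, had 5.90 and 4.89 FPKM in IgG RIP against 1.99 and 2.67 FPKM in KIAA1429 RIP, and was the 1 tested gene of the list with groups apart and a ratio beyond 2-fold (log2 ratio of means -1.21, limma adjusted p = 0.997). In the tested part of the list, groups did not overlap for 0 genes upward and 4 downward (40.0% of the list), and the median log2 ratio was -0.15. Over all 11361 gene totals tested the groups were apart upward in 1883 (16.6%) and downward in 1729 (15.2%), and the median log2 ratio was 0.01 over the 11228 of them with a finite ratio. The 4 became 2 with median scaling and 3 with quantile normalization, alternatives added after the values were seen. ZFPM1 (FOG1), the cofactor named for its binding to GATA proteins and likewise chosen after its values were seen, was listed below the filter, at 0.370 and 0.113 FPKM in IgG RIP against 0.803 and 0.665 FPKM in KIAA1429 RIP.

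Other forkhead genes were numerous. Of 37 on the list, 23 were listed, 21 were tested and 0 were called by limma. The most abundant were FOXK1 (40.9 to 58.4 FPKM), FOXM1 (14.9 to 40.8 FPKM) and FOXK2 (25.5 to 35.7 FPKM), so the cell cycle regulator FOXM1 and the broadly expressed FOXK pair were well above FOXA1, FOXA2 and FOXA3. Groups did not overlap in 1 gene upward and 9 downward of the 21 (4.76% and 42.9%, beside 16.6% and 15.2% over all gene totals tested), and the median log2 ratio was -0.33. The count of 9 downward and 1 upward was the same with median scaling and with quantile normalization. FOXC2, a factor of mesenchyme and lymphatic vessels, was at 3.18 and 2.23 FPKM in IgG RIP against 1.11 and 1.04 FPKM in KIAA1429 RIP (log2 ratio of means -1.33), and FOXD2 at 2.0 and 1.14 FPKM against 0.722 and 0.765 FPKM (log2 ratio of means -1.08). Neither passed the test (limma adjusted p = 0.997 for both), and FOXD2 met the filter only through IgG RIP, which favours its direction.

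The wider liver network was largely listed. Of 38 other transcription factors enriched in liver, 32 were listed and 24 tested. NR2F2 (COUP-TFII, 96.4 to 117 FPKM), SOX9 (38.6 to 107 FPKM) and CEBPB (43.6 to 62.5 FPKM) led the list; NR2F2 competes with HNF4A for DNA sites, and SOX9 marks bile duct and progenitor cells. CEBPA, which drives mature hepatocyte genes, was at 2.70 and 4.84 FPKM in IgG RIP against 2.42 and 3.47 FPKM in KIAA1429 RIP. CEBPA was chosen for mention after its values were seen. Groups did not overlap in 4 genes upward and 5 downward of the 24 (16.7% and 20.8%, beside the same 16.6% and 15.2%), with a median log2 ratio of 0.03, and 0 were called.

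The oxysterol receptor NR1H2 (LXR beta) was at 13.7 and 5.71 FPKM in IgG RIP against 21.0 and 23.7 FPKM in KIAA1429 RIP (log2 ratio of means 1.21). PPARA, the receptor that governs fatty acid oxidation in liver, was at 4.17 and 6.09 FPKM in IgG RIP against 1.26 and 2.53 FPKM in KIAA1429 RIP (log2 ratio of means -1.44). TBX3, a T-box factor of hepatoblasts, was at 2.73 and 1.27 FPKM in IgG RIP against 0.626 and 0.469 FPKM in KIAA1429 RIP (log2 ratio of means -1.87). These 3 were the tested genes of the liver list with groups apart and a ratio beyond 2-fold, and each had a limma adjusted p of 0.997. TBX3 passed the filter only through IgG RIP, where it was high, which favours its direction.

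Coactivators and corepressors through which HNF4A acts were mostly more abundant than the receptor. Of 20, 19 were listed and tested, PPARGC1A being the exception, and 0 were called. Among the most abundant, the arginine methyltransferase PRMT1 was at 71.1 and 55.5 FPKM in IgG RIP against 72.0 and 73.4 FPKM in KIAA1429 RIP, and CTNNB1 (beta-catenin) was at 57.7 to 67.9 FPKM with overlapping groups. Groups did not overlap in 1 gene upward, PRMT1, and 6 downward (5.26% and 31.6%, against 16.6% and 15.2% over all gene totals tested). The 6 downward include the paired acetyltransferases CREBBP (25.3 and 25.3 FPKM in IgG RIP, 12.9 and 14.7 FPKM in KIAA1429 RIP) and EP300 (24.3 and 19.5 FPKM against 16.8 and 14.7 FPKM), named after their values were seen. The median log2 ratio of the list was -0.06, and with quantile normalization 0 were apart upward and 8 downward.

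Antisense and neighbouring noncoding RNAs were nearly all outside the listing. Of 16 such genes, GATA3-AS1 among them, 1 was listed, LINC00261, which lies beside FOXA2 on the same strand of chromosome 20. It was at 0.914 and 1.98 FPKM in IgG RIP against 1.85 and 0.585 FPKM in KIAA1429 RIP, with overlapping groups and a level much like that of FOXA2. GATA3-AS1 is annotated at chr10:8092413-8095447 on the minus strand, inside the annotated span of GATA3 on the plus strand. It overlaps none of the listed GATA3 transcripts, the nearest of which starts at position 8095567. Whether the fragments were assigned by strand is not given in the sources used here.

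The labelled cell type was checked against markers. Of 20 hepatocyte markers 17 were listed, HP, ASGR1 and TAT being the exceptions, and their summed level was 622 and 580 FPKM in IgG RIP against 502 and 547 FPKM in KIAA1429 RIP. AFP, the fetal albumin relative (99.1 to 128 FPKM), APOA2 (55.8 to 143 FPKM) and ALB (53.5 to 76.3 FPKM) were the most abundant. Groups did not overlap in 2 upward and 6 downward of the 16 tested (12.5% and 37.5%, against 16.6% and 15.2% over all gene totals tested), and the median log2 ratio was -0.04. APOH had 0.855 and 1.14 FPKM in IgG RIP against 4.59 and 5.04 FPKM in KIAA1429 RIP (log2 ratio of means 2.27), and CPS1, the urea cycle enzyme, had 5.98 and 6.86 FPKM against 2.97 and 3.42 FPKM (log2 ratio of means -1.01), neither past the test (limma adjusted p = 0.997 for both). The mean of APOH in IgG RIP was just under 1 FPKM, so it too met the filter only through the group where it was high. The lowest value of AFP, APOA2 and ALB in any library, 53.5 FPKM, stood beside a highest value of 1.11 FPKM for HNF4A. Not every marker stood so high. APOC3, chosen for mention after its values were seen, was at 1.65 FPKM and 0 in IgG RIP, and at 1.90 FPKM and 0 in KIAA1429 RIP.

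Markers of other cell types that carry these factors were uneven. Of 10 cholangiocyte markers 7 were listed, led by KRT19 (208 to 285 FPKM), SOX9 and KRT7 (18.3 to 26.0 FPKM), and their sum was 290 to 402 FPKM; of the 6 tested, groups were apart in 1 upward and 2 downward (16.7% and 33.3%, with the same background), with a median log2 ratio of 0.11. Of 12 luminal mammary markers 6 were listed and ESR1, PGR, TFF3, SPDEF, ANKRD30A and SCGB2A2 were not; their sum, 875 to 1097 FPKM, was mostly KRT18 (820 to 1048 FPKM), which hepatocytes also express, followed by MLPH (18.0 to 31.7 FPKM) and XBP1 (11.8 to 32.2 FPKM). Trophoblast markers were listed in 4 of 10 cases, with TFAP2A (80.9 to 119 FPKM), KRT7 and TFAP2C (2.46 to 4.83 FPKM) at the top and a sum of 109 to 141 FPKM. Urothelial markers were reduced to PPARG (1.19 to 2.84 FPKM), 1 of 10, with no listed uroplakin.

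For leukocytes 3 of 8 markers were listed, without PTPRC, and CD68 (28.7 to 72.2 FPKM) and LYZ (9.89 to 17.5 FPKM) made up most of a sum of 40.7 to 87.8 FPKM. Endothelium had 1 of 8, EGFL7 (5.83 to 20.2 FPKM), without PECAM1, CDH5 or VWF. Fibroblast and stellate cell markers were listed in 4 of 8 cases without COL1A1 or COL1A2, summed to 42.2 to 60.0 FPKM, and were led by ACTA2 (18.2 to 37.1 FPKM), COL3A1 (7.46 to 15.1 FPKM) and THY1 (7.41 to 12.3 FPKM). PDGFRB, the platelet-derived growth factor receptor of mesenchyme, was at 1.20 and 1.05 FPKM in IgG RIP against 4.88 and 3.17 FPKM in KIAA1429 RIP (log2 ratio of means 1.83, limma adjusted p = 0.997), while COL3A1 had overlapping groups and a log2 ratio of -0.47. Groups were apart in 2 upward and 0 downward of the 4 (50% and 0%, with the same background), with a median log2 ratio of 0.43. With median scaling and with quantile normalization the count was 1 upward and 1 downward. KRT7, SOX9 and XBP1 each stood on 2 of the lists, and 0 genes of any marker list were called by limma.

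Gene totals with nearly the same values as each factor over the 4 libraries were common at these levels. The nearest to GATA2 was MORN1, with a mean absolute difference of 0.02 in log2(FPKM + 1), and 97 gene totals lay within 0.2. SLC30A4, a zinc transporter, was nearest to GATA4 (0.09, 61 within 0.2). For FOXA1 it was C12orf45 (0.07, 56 within 0.2), for FOXA2 the membrane protein gene CNNM2 (0.06, 55 within 0.2) and for FOXA3, with its value of 0 in IgG RIP replicate 1, AC026316.2 (0.06, 9 within 0.2).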

How the data were processed

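RIP-seq was analysed in 4 libraries of HCCLM3 cells, 2 per group, grouped by the labels. The authors aligned the reads to GRCh37/hg19 (the methods name HISAT2, the submitters' processing notes Bowtie2 2.1.0) and deposited FPKM values per transcript; the tool that estimated them and the annotation release are not given in the sources used here. No listed transcript had both group means below 0.5001 FPKM. Features averaging 1 FPKM or more over the libraries, 11361 gene totals and 23375 transcripts, entered a limma fit (limma 3.58.1, R 4.3.3, two-sided, eBayes with trend, p-values adjusted by Benjamini-Hochberg) of the log2 of FPKM plus 1. The fit was also run on simulated data, whose outcome is not reported here and is no support for the absence of calls. Python 3.11.15 (numpy 2.4.6, pandas 2.3.3, matplotlib 3.10.9) served for the rest. Transcript lengths, motifs (GGAC, transcript strand) and printed sequences came from GENCODE v44lift37 on GRCh37; where the listed version differed, the length was adjusted to the listed outer ends. Nothing says that replicates were separate cultures, so p-values measure the spread between these libraries, which may be technical. Members and lists were chosen with earlier results of these data known. Named were the 8 members, the 3 most abundant genes of each list, up to 3 with groups apart and a log2 ratio beyond 1, the nearest gene total and 4 references; some named by this rule are not reported here, and other names are marked as chosen after their values were seen.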

Additional observations from a re-analysis of the deposited data

How the results depend on the processing

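Gene totals and transcripts called in either direction numbered 0 under each alternative (pseudocount 0.1, no filter, a mean of at least 5 FPKM, median scaling, quantile normalization, limma without trend, each library left out) except 1: with the replicate number as a replicate block, 12 gene totals were called higher and 1 lower in KIAA1429 RIP, 0 of them a factor, and transcripts stayed at 0. The labels share only numbers between the groups, and the correlation of deviations of same-numbered libraries was 0.187 for gene totals and 0.030 for transcripts. Over 57 settings for the 5 tested factors, 50 kept the direction and 7 reversed it. Some of these settings could not reverse it. A changed filter, limma without trend and the replicate block leave the log2 fold change of a gene as it is. For FOXA2 and FOXA3 the most abundant transcript is also the only listed one. The count of 50 therefore overstates how stable the directions were. FOXA1 reversed to -0.22 with its most abundant transcript in place of the total. The log2 fold change of FOXA3 moved from 0.12 to 1.16 (SE 1.95) with the pseudocount of 0.1. With 1 library left out the log2 fold change ran from -0.078 to 0.32 for FOXA1, -0.34 to 0.23 for FOXA2, -0.82 to 1.06 for FOXA3, -0.32 to 0.50 for GATA2 and -0.75 to 0.0045 for GATA4; the cause was not tested. HNF4A was tested only with no filter, where its difference was -0.20 (limma adjusted p = 0.987). Its difference turned to 0.040 without IgG RIP replicate 1 and 0.047 without KIAA1429 RIP replicate 1. Over all alternatives that gave a value, GATA4-201 (-2.47 to -1.57) and GATA2-203 (1.12 to 3.26), added after the values were seen, kept their direction, and -2.47 and 3.26 came from the pseudocount of 0.1. The groups of both transcripts did not overlap, so most alternatives, including each library left out, could not reverse the direction. Only median scaling and quantile normalization could have, and the kept direction is a description. HNF4A and the FOXA genes stood at no more than 7.1 steps in any library, and the part of depth in these values was not tested.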
